A study of Mus musculus with 48 samples.

Results

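Gsta2 is 1 of 10 glutathione transferase genes followed here through 48 RNA-seq libraries of mouse kidney slices kept in culture. The 10 genes, Gsta2, Gsta1, Gsta3, Gsta4, Gstm1, Gstm2, Gstp1, Gstt1, Gsto1 and Gstk1, were taken by symbol from the 55487 genes of the deposited count table, and all 10 were present. The slices came from kidneys of male mice of 2 inbred strains, C57BL/6J and DBA/2J, and each strain was sampled in 8 conditions with 3 libraries a group. The labels name no transgene or engineered allele in either strain. The conditions were untreated control slices, slices given tunicamycin and slices given cyclosporin A, each at 6 h and at 24 h, and 2 oxygen regimes that the titles place at 24 h. The first regime is named normoxia and labelled a model of ischemia, and the second is normoxia followed by hyperoxia, labelled a model of reperfusion. Tunicamycin blocks the glycosylation of new proteins in the endoplasmic reticulum, and cyclosporin A is an immunosuppressant with known toxicity to the kidney. Doses, animal ages, the oxygen level of the controls and the time of the oxygen switch are not given in the sources used here. The labels number the replicates as biological, without saying whether slices of different conditions came from the same animals, so the p-values measure the spread between these libraries.

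Glutathione transferases join the tripeptide glutathione to reactive, often toxic compounds, which are then exported from the cell or broken down further. The cytosolic enzymes form classes named by Greek letters: alpha (Gsta), mu (Gstm), pi (Gstp), theta (Gstt) and omega (Gsto). Gstk1 is the kappa-class enzyme of mitochondria and peroxisomes and is therefore not cytosolic, although it is grouped with the others here. In the kidney, alpha-class enzymes are known from the proximal tubule, and several transferase genes are textbook targets of NRF2, the transcription factor that answers to electrophiles and oxidants.

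Gsta2 was chosen by its measured response to normoxia against the 24 h controls, which differed between the strains, and the group was built around it. Its values in the 24 h control and normoxia libraries are therefore given as a description without a test. The remaining 36 libraries played no part in that choice, and Gsta2 was tested only between groups of them. The strain fit takes its estimate of spread from all 48 libraries, so the strain differences of Gsta2 were also fitted on the 36 alone. No threshold on values was stated for the other 9 genes, which were tested in every comparison in which they passed the filter on low counts.

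Because 4 of the alpha-class genes are close copies, the sequences come before the values. Gsta4, Gsta1, Gm3776, Gm10639 and Gsta2 lie in this order on mouse chromosome 9 (GRCm38), with Gsta4 at chr9:78182774-78209349, Gsta1 at chr9:78230656-78242684, Gm3776 at chr9:78257129-78269166 and Gm10639 at chr9:78289923-78305525. Gsta2 lies at chr9:78331018-78355788 on the minus strand, and the other 4 lie on the plus strand. Gm3776 and Gm10639 are annotated protein-coding genes that are not among the 10. The 300 bases around the annotated start of each of the 4 copies, from RefSeq on GRCm38.p6, run from 250 bases before the start to 50 after it. They are shown as a description of the reference genome, and their part in the levels of the 4 genes was not tested. Capitals mark the 5 runs of at least 12 bases that all 4 sequences hold, 79 bases in all with a longest run of 24.
Gsta1: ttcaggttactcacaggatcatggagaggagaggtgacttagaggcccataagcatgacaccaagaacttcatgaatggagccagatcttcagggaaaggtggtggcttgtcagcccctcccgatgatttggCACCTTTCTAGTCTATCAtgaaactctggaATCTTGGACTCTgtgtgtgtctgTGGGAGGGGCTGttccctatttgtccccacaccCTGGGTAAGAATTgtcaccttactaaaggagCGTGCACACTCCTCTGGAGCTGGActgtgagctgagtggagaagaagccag
Gm3776: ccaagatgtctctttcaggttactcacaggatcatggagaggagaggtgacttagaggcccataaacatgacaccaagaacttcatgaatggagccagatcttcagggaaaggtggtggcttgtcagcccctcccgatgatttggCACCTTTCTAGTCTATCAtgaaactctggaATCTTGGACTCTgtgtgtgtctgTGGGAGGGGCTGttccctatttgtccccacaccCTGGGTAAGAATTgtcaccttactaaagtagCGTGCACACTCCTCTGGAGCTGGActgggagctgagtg
Gm10639: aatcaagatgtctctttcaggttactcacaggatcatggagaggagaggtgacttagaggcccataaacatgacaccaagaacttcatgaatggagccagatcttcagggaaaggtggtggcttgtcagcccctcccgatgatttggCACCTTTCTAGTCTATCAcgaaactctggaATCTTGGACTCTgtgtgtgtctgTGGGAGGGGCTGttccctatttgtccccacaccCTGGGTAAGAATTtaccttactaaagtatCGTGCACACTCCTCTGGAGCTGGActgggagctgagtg
Gsta2: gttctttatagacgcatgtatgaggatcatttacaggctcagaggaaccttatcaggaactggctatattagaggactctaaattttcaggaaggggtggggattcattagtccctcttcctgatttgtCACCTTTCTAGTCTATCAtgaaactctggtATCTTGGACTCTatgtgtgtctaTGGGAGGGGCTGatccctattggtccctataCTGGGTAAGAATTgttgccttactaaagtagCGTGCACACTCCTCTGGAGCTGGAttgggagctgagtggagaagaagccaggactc
These sequences lie at chr9:78230419-78230718 for Gsta1, chr9:78256879-78257178 for Gm3776 and chr9:78289678-78289977 for Gm10639, all on the plus strand, and at chr9:78347096-78347395 on the minus strand for Gsta2. In the aligned part, Gsta1 and Gm3776 matched at 99% of bases, Gsta1 and Gm10639 at 97.9%, and Gsta1 and Gsta2 at 80.3%. The RefSeq start of Gsta2 falls inside the longer gene model of GENCODE M21.

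The copies also share most of their transcript sequence, which bears on how far their counts can be told apart. The longest coding transcripts of Gsta2 and Gm10639 were identical at 98.3% of aligned bases, those of Gsta2 and Gsta1 at 97.2%, and those of Gsta1 and Gm3776 at 99.5%. Gsta3, on chromosome 1 at chr1:21240589-21265661, matched Gsta2 at 73.3%, and Gsta4 at 67.7%. Of all windows of 50 bases in the Gsta2 transcript, 64.2% were found unchanged in another gene, against 89.7% for Gsta1, 92.5% for Gm3776 and 48% for Gm10639. No such window was shared for Gsta3, Gsta4, Gstt1, Gsto1 or Gstk1, while the share was 62.3% for Gstp1, whose copy Gstp2 lies beside it, 23.1% for Gstm1 and 9.36% for Gstm2. How reads that match several genes were counted is not given in the sources used here, so the split of counts among Gsta2, Gsta1, Gm3776 and Gm10639, and between Gstp1 and Gstp2, is uncertain.

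The promoter table used here, from RefSeq, gave entries for 9 of the 10 genes, 10 sequences in all since Gstm1 has 2 overlapping ones. The core of the antioxidant response element bound by NRF2, searched on both strands as TGACNNNGC, was found in the sequence of 1 of these 9 genes, Gsta3, against 12.4% of all 32851 promoters of the same length. The core of the element bound by the aryl hydrocarbon receptor, GCGTG, was found in sequences of 4 of the 9 genes, Gsta1, Gsta2, Gstm1 and Gstp1, against 32.4% of all promoters. The overlapping Gstm1 sequences hold the same single site. A match is a description of the letters in this window only.

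The libraries held between 5619309 and 25137581 counted reads, with a median of 19607361. The lowest total belonged to DBA/2J normoxia-hyperoxia replicate 2, and the next lowest was 12384733. Levels are given as CPM, the reads of a gene per 1000000 reads of the library after TMM scaling of the library size (edgeR's trimmed mean of log ratios), and tests are edgeR quasi-likelihood tests with Benjamini-Hochberg adjusted p-values over all genes tested. A gene was called changed at an adjusted p under 0.05. The kidney label was borne out by the marker genes: the summed level of 12 proximal tubule markers ranged from 812 to 49510 CPM over the libraries, and 4 thick ascending limb markers from 523 to 18060 CPM. Of 3 adipocyte markers the summed level did not pass 0.379 CPM, with all 3 at 0 in some libraries. Markers of 2 further tissues were not all near 0. The sum of 3 liver markers ranged from 0.683 to 87.9 CPM, most of it Ttr (transthyretin), which reached 81.2 CPM, while Alb (albumin) did not pass 7.57 CPM and Apoa1 did not pass 0.696 CPM. The sum of 4 adrenal markers ranged from 1.09 to 24.4 CPM, most of it Star, the cholesterol carrier of steroid synthesis, and the adrenal cortex enzyme Cyp11b1 had at most 2 reads in any library.

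Gsta2 stood at 3 levels in this study: a high one in all C57BL/6J conditions but normoxia-hyperoxia and in DBA/2J control and drug slices at 24 h, a low one in the other DBA/2J groups, and one between them in C57BL/6J normoxia-hyperoxia. In C57BL/6J controls at 6 h the 3 libraries held 117, 73.3 and 96.8 CPM. In DBA/2J controls at 6 h they held 4.81, 5.92 and 5.01 CPM, from 88 to 116 reads. The groups did not overlap, and the lowest C57BL/6J library stood far above the highest DBA/2J library. The difference, DBA/2J minus C57BL/6J, was -4.19 on the log2 scale (SE 0.288, n = 3 a group, edgeR adjusted p = 8.36e-14), or 18.2-fold lower in DBA/2J.

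**Figure D1:**
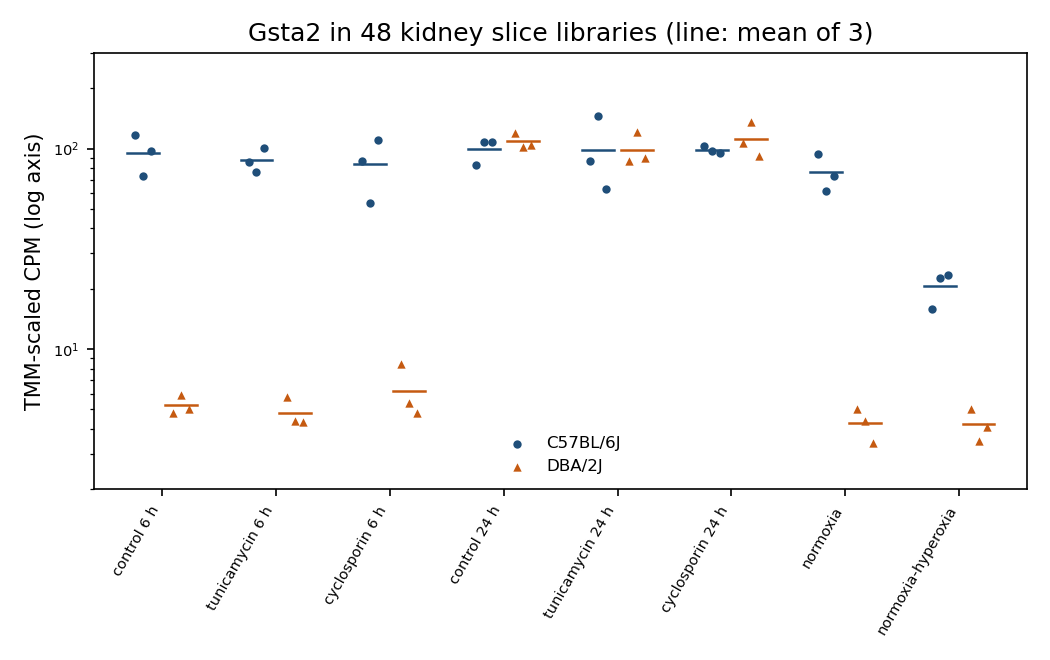
Gsta2 level in each of 48 libraries, in TMM-scaled CPM on a log axis, by condition; circles are C57BL/6J, triangles are DBA/2J, and each line is the mean of 3 libraries. DBA/2J libraries lie between 3.41 and 8.4 CPM at 6 h and in both oxygen regimes, and between 86.3 and 136 CPM in the 24 h control and drug conditions.

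The same strain difference was present in the drug-treated slices at 6 h. With tunicamycin at 6 h, C57BL/6J held 85.8, 76.4 and 101 CPM of Gsta2 and DBA/2J 5.74, 4.38 and 4.32 CPM, a log2 difference of -4.19 (SE 0.29, edgeR adjusted p = 8.98e-14). With cyclosporin A at 6 h, C57BL/6J held 86.7, 53.5 and 111 CPM and DBA/2J 8.4, 5.38 and 4.8 CPM, a log2 difference of -3.76 (SE 0.281, adjusted p = 7.85e-13 by edgeR). In both drug conditions every C57BL/6J library was above every DBA/2J library. These 3 conditions at 6 h rest on separate libraries. Fitted without the 24 h control and normoxia libraries, the differences were -4.18 in controls, -4.18 with tunicamycin and -3.75 with cyclosporin A (edgeR adjusted p = 4.18e-11, 4.69e-11 and 2.39e-10).

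At 24 h the Gsta2 values of the 2 strains overlapped in controls and with either drug. The 24 h controls, which are described without a test, held 83.3, 107 and 108 CPM in C57BL/6J and 120, 102 and 104 CPM in DBA/2J. With tunicamycin at 24 h, C57BL/6J held 86.5, 146 and 63 CPM and DBA/2J 86.3, 121 and 89.3 CPM. The groups overlapped, and the log2 difference was 0.01, with a 95% interval from -0.46 to 0.47 (edgeR adjusted p = 0.993). With cyclosporin A at 24 h, C57BL/6J held 103, 97 and 95.1 CPM and DBA/2J 107, 136 and 92.1 CPM. The groups again overlapped, with a log2 difference of 0.18 and an interval from -0.28 to 0.65 (edgeR adjusted p = 0.645). Both intervals lie far from the differences seen at 6 h, though they leave room for a modest difference in either direction.

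In DBA/2J slices Gsta2 therefore stood 17.3-fold to 20.4-fold higher at 24 h than at 6 h, and in C57BL/6J slices the 2 drug comparisons did not pass the test. Between tunicamycin at 24 h and tunicamycin at 6 h the log2 change was 4.34 in DBA/2J (20.2-fold, edgeR adjusted p = 2.16e-06) and 0.17 in C57BL/6J (adjusted p = 0.613), where 59.8% and 60.9% of all genes were called in these strains. The difference between the strains in that change was 4.17 (SE 0.413, edgeR adjusted p = 0.00272), where 0.379% of all genes tested passed the same test. Between the cyclosporin A groups the change was 4.11 in DBA/2J (17.3-fold, edgeR adjusted p = 1.59e-06) and 0.23 in C57BL/6J (adjusted p = 0.468), with 59.9% and 56% of all genes called. The strain difference in the change was 3.88 (SE 0.391, edgeR adjusted p = 0.00501), against 0.262% of all genes called. For the controls the change was 4.35 in DBA/2J and 0.04 in C57BL/6J, given without a test. The interaction for tunicamycin kept its size but not its call when the replicate number was added as a block, at 4.24 (edgeR adjusted p = 0.0797).

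In normoxia, the condition used to choose the gene, Gsta2 stood at 93.6, 61.7 and 73.3 CPM in C57BL/6J and at 5.02, 4.37 and 3.41 CPM in DBA/2J. The log2 difference between the strains there was -4.16, and the change from the 24 h controls was -0.38 in C57BL/6J and -4.59 in DBA/2J. Against the 6 h controls the change was -0.36 in C57BL/6J and -0.31 in DBA/2J, so that normoxia and 6 h controls held like levels within each strain. These values describe the choice and support nothing.

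Normoxia-hyperoxia was the one condition in which the C57BL/6J level of Gsta2 was low. The C57BL/6J libraries held 15.9, 22.7 and 23.5 CPM and the DBA/2J libraries 5.05, 3.5 and 4.1 CPM, so that C57BL/6J fell below all its other groups and stayed above DBA/2J. The titles place the normoxia-hyperoxia libraries at 24 h, so against the 6 h controls time in culture, experiment and oxygen regime cannot be told apart. Against the 6 h controls, Gsta2 fell by 2.19 on the log2 scale in C57BL/6J (4.56-fold lower, SE 0.178, edgeR adjusted p = 1.99e-06), and the change in DBA/2J was -0.30 (SE 0.226, adjusted p = 0.332), where 23.2% and 35.2% of all genes were called. The strain difference in that change was 1.89 (SE 0.286, edgeR adjusted p = 0.017), with 0.232% of all genes called. Its call was lost without any of 4 single libraries, replicate 3 of either strain's 6 h controls and replicates 1 and 3 of DBA/2J normoxia-hyperoxia, at 1.73 to 1.95 (edgeR adjusted p from 0.0563 to 0.0804), and with the replicate block at 1.89 (adjusted p = 0.0626). Within normoxia-hyperoxia the strains differed by -2.25 (SE 0.303, edgeR adjusted p = 6.92e-07), 4.77-fold lower in DBA/2J.

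The proximal tubule markers changed between the same groups, for the most part in another direction than Gsta2. Their summed level averaged 13510 CPM in the 6 h controls of C57BL/6J and 19700 CPM in those of DBA/2J, and 1614 and 4611 CPM in the 24 h controls. It averaged 34040 and 46300 CPM in normoxia and 986.7 and 2171 CPM in normoxia-hyperoxia. All 12 markers fell in the 24 h against the 6 h controls and in normoxia-hyperoxia against the 6 h controls, and all 12 rose in normoxia against the 24 h controls. In normoxia-hyperoxia against the 6 h controls the C57BL/6J markers and C57BL/6J Gsta2 both fell, while from 6 h to 24 h the DBA/2J markers fell where DBA/2J Gsta2 was higher. In no condition was a proximal tubule marker called lower in DBA/2J, where Gsta2 was the lower at 6 h. In bulk slices, fewer cells of a type and less RNA per cell cannot be told apart, and the part of the markers in the Gsta2 values was not tested.

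The liver markers moved with the strain difference of Gsta2 in several conditions. Their summed level averaged 70.8 CPM in the 6 h controls of C57BL/6J and 3.68 CPM in those of DBA/2J. In normoxia the averages were 78.1 and 5.14 CPM, and in normoxia-hyperoxia the C57BL/6J average was low, at 4.21 CPM, beside 1.53 CPM in DBA/2J. The strain difference of Ttr alone was -5.25 in the 6 h controls, -4.69 with tunicamycin and -4.73 with cyclosporin A at 6 h, -5.06 in normoxia and -2.25 in normoxia-hyperoxia on the log2 scale. At 24 h the liver markers and Gsta2 parted: the sum averaged 3.96 CPM in the controls of C57BL/6J and 1.23 CPM in those of DBA/2J, and Ttr stayed lower in DBA/2J, at -4.07 with tunicamycin and -2.97 with cyclosporin A, where Gsta2 overlapped. All 3 liver markers were called lower in DBA/2J in the 6 h controls, 1 or 2 of 3 in each other condition, and their part in the Gsta2 values was not tested.

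Mitochondrial transcripts made up 15.4% of counts in C57BL/6J and 8.16% in DBA/2J controls at 6 h, 6.82% and 3.52% at 24 h, 23.9% and 12.3% in normoxia, and 14.1% and 13.7% in normoxia-hyperoxia, and their part was not tested either.

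DBA/2J reads were counted on GRCm38, which is a C57BL/6J genome. In DBA/2J at 24 h, 1712 to 3286 reads were counted for Gsta2 in each control or drug library, against 86 to 169 in each library at 6 h. When the counts of Gsta2, Gsta1, Gm3776 and Gm10639 were added into 1 gene, an alternative chosen after the values were seen, the strain difference was -3.67 in 6 h controls, 0.38 with tunicamycin at 24 h (edgeR adjusted p = 0.288), 0.59 with cyclosporin A at 24 h (edgeR adjusted p = 0.0604) and -1.57 in normoxia-hyperoxia (edgeR adjusted p = 4.08e-05). The sum averaged 99.7 CPM in the 6 h controls of C57BL/6J and 7.86 CPM in those of DBA/2J, and 167 and 220.3 CPM at 24 h. With cyclosporin A at 24 h it averaged 160.2 and 241.7 CPM.

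Gsta1, the nearest alpha-class relative of Gsta2 among the 10, was close to undetected at 6 h in both strains and abundant at 24 h in both. The 6 h controls held 0.369, 1.15 and 0.341 CPM in C57BL/6J, from 6, 18 and 6 reads, and 0.405, 0.46 and 0.57 CPM in DBA/2J, from 9, 9 and 10 reads. The 24 h controls held 33.1, 29.9 and 42.6 CPM in C57BL/6J and 32.1, 38 and 40 CPM in DBA/2J. Every 24 h library stood far above every 6 h library, and the strains overlapped at both times. By summed counts the 24 h level was 56.2-fold that at 6 h in C57BL/6J (95% interval 39.2 to 83.5, counting error only) and 77.3-fold in DBA/2J (53.3 to 117). The edgeR log2 change over both strains was 6.03 (SE 0.197, adjusted p = 1.88e-11), with no detectable difference between strains (0.41, SE 0.495, edgeR adjusted p = 0.793). Gsta1 passed the filter on low counts in this comparison only through the 24 h groups, so the test adds no support to the values by library. Gsta1 thus differed from Gsta2 in C57BL/6J, where Gsta2 was already high at 6 h.

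In both oxygen regimes Gsta1 was again near its floor. Normoxia libraries held 2, 1 and 2 reads in C57BL/6J and 3, 3 and 4 in DBA/2J, while normoxia-hyperoxia libraries held 12, 8 and 17 and 25, 0 and 14 reads. The 24 h control level was 396-fold that of normoxia in C57BL/6J (95% counting interval 169 to 1220) and 229-fold in DBA/2J (124 to 478). A strain difference was called for Gsta1 in a single condition, cyclosporin A at 6 h, at -1.87 (edgeR adjusted p = 0.0181), from 10, 11 and 11 reads against 1, 5 and 5. It was lost without a filter on low counts and without C57BL/6J replicate 2 or DBA/2J replicate 1, with edgeR adjusted p-values from 0.0566 to 0.0985.

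The neighbours of Gsta1 showed further patterns, described after their values were seen. DBA/2J reads were counted on a C57BL/6J genome, and the split of counts among these copies is uncertain. The part of that split in the strain differences of Gm10639 was not tested. Gm3776 followed Gsta1, with 0.123 to 0.321 CPM in the 3 C57BL/6J and 0.045 to 0.255 CPM in the 3 DBA/2J controls at 6 h, and 16.4 to 22.9 and 21.6 to 23.8 CPM at 24 h. Gm10639 also rose by 24 h, but to a different level in the 2 strains. Its 24 h controls held 10.8, 13.1 and 14.7 CPM in C57BL/6J and 46, 55.4 and 54.5 CPM in DBA/2J, without overlap. The strain difference of Gm10639 was 2.02 in 24 h controls (edgeR adjusted p = 5.17e-08), 2.19 with tunicamycin (adjusted p = 9.99e-09 by edgeR) and 2.42 with cyclosporin A (adjusted p = 9.74e-10 by edgeR) at 24 h, higher in DBA/2J each time. In the 6 h controls it was -0.69 (edgeR adjusted p = 0.117). The strain difference in the change from 6 h to 24 h of the controls was 2.7 for Gm10639 (SE 0.251, edgeR adjusted p = 9.32e-05).

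**Figure D2:**
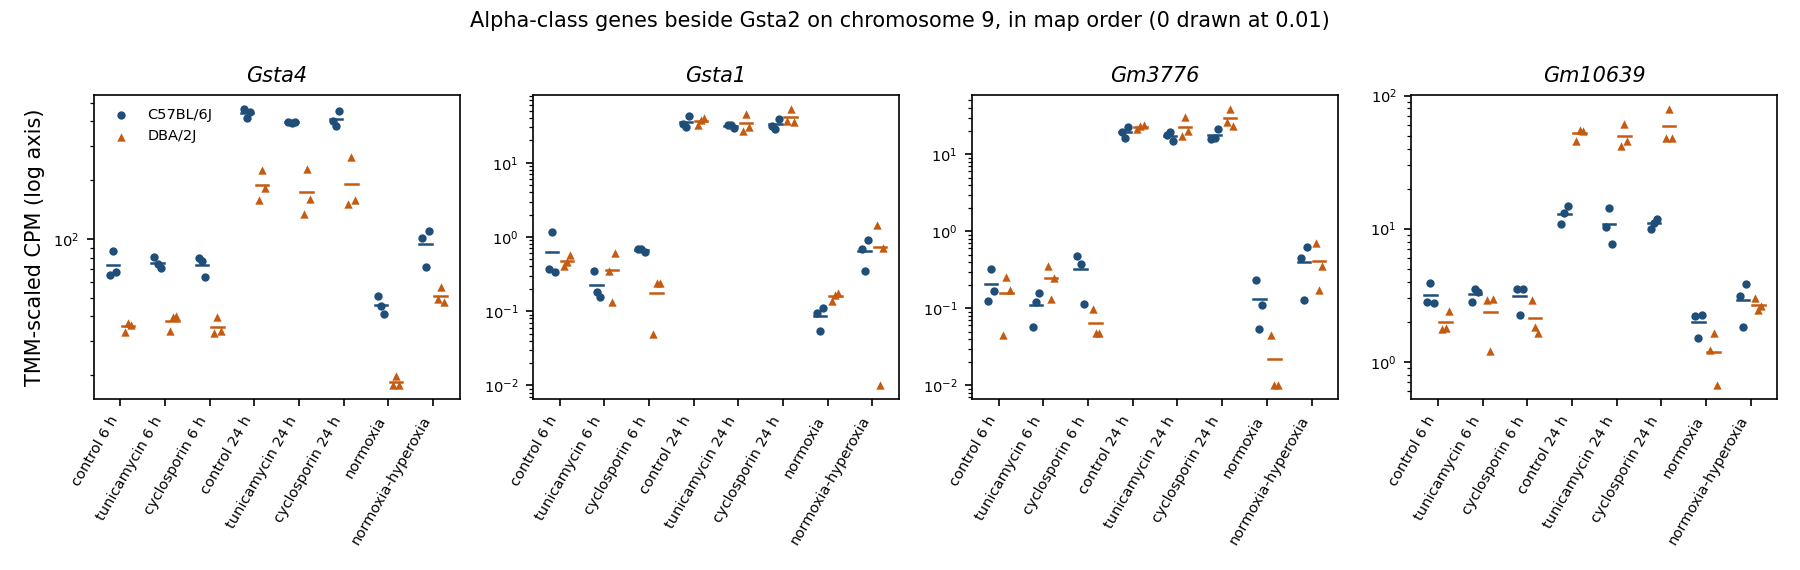
Levels of Gsta4, Gsta1, Gm3776 and Gm10639 in each library, in TMM-scaled CPM on log axes, with values of 0 drawn at 0.01; circles are C57BL/6J, triangles are DBA/2J, and lines are means of 3 libraries. All 4 genes are highest at 24 h in the control and drug conditions, Gsta4 is higher in C57BL/6J throughout, and Gm10639 is higher in DBA/2J at 24 h.

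Gsta4, an alpha-class enzyme with a preference for the lipid peroxidation product 4-hydroxynonenal, sits at the other end of the cluster and shares no 50-base window with Gsta2. It rose with time in both strains and was lower in DBA/2J in every condition. The 6 h controls held 65.6, 86.7 and 67.8 CPM in C57BL/6J and 33.4, 37.1 and 36.2 CPM in DBA/2J. The 24 h controls held 464, 416 and 447 CPM in C57BL/6J and 158, 224 and 182 CPM in DBA/2J. Neither the strains nor the times overlapped, and Gsta4 rose by 2.48 on the log2 scale over both strains (5.58-fold, SE 0.0952, edgeR adjusted p = 5.18e-11). In normoxia it stood at 50.8, 45.3 and 41 CPM in C57BL/6J and at 17.7, 19.9 and 17.9 CPM in DBA/2J, below the 6 h controls of the same strain. In normoxia-hyperoxia it stood at 101, 72 and 109 CPM and at 48.9, 56.6 and 47.7 CPM, and the change from the 6 h controls was 0.43 over both strains (SE 0.105, edgeR adjusted p = 0.00428). Gsta4 thus rose in the comparison in which Gsta2 fell in C57BL/6J.

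Gsta3, the alpha-class member on chromosome 1, was set apart by strain more than by time. It held 67.3, 41.9 and 47.2 CPM in C57BL/6J and 21.7, 16.6 and 16.2 CPM in DBA/2J controls at 6 h, and 58.6, 57.5 and 62.1 CPM against 25.3, 20.4 and 27.9 CPM at 24 h. The strains did not overlap in any of the 8 conditions. The change from 6 h to 24 h controls was 0.29 (SE 0.121, edgeR adjusted p = 0.0448), and it lost its call on leaving out any single library but replicate 1 of either strain at 6 h or DBA/2J replicate 2 at 24 h, at 0.21 to 0.30 (edgeR adjusted p from 0.0599 to 0.107), and in a fit of all 48 libraries at 0.31 (adjusted p = 0.0574). Normoxia-hyperoxia was the low condition for Gsta3, with 20.6, 24.1 and 18.9 CPM in C57BL/6J and 12.8, 11 and 10.2 CPM in DBA/2J. It fell there by 0.99 on the log2 scale against the 6 h controls (SE 0.127, edgeR adjusted p = 2.8e-05) and by 1.30 against the 24 h controls (SE 0.0914, edgeR adjusted p = 9.69e-09).

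The mu-class genes, whose enzymes conjugate a broad range of electrophiles, lie side by side on chromosome 3 and split in normoxia. Gstm1 held 167, 117 and 130 CPM in C57BL/6J and 137, 110 and 130 CPM in DBA/2J controls at 6 h, and 95.3, 108 and 97.8 CPM against 91.5, 74.7 and 108 CPM at 24 h. In normoxia it reached 288, 376 and 352 CPM in C57BL/6J and 209, 172 and 156 CPM in DBA/2J. These are the highest Gstm1 values of the study in each strain except that 1 DBA/2J cyclosporin A library at 6 h, at 161 CPM, passed the lowest of them. Against the 24 h controls the rise in normoxia was 1.76 in C57BL/6J and 1.05 in DBA/2J on the log2 scale, a strain difference of -0.71 (SE 0.193, edgeR adjusted p = 0.0235, with 17% of all genes called). That call was lost without C57BL/6J control replicate 1, or replicate 2 or 3 of either strain in normoxia, with edgeR adjusted p-values from 0.055 to 0.0631 and values from -0.62 to -0.68. The fall of Gstm1 from 6 h to 24 h controls was 0.48 (log2 change -0.48, SE 0.104, edgeR adjusted p = 0.00087).

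Gstm2 was highest in normoxia-hyperoxia, not in normoxia. It held 101, 110 and 95 CPM in C57BL/6J and 72.3, 63.3 and 63.4 CPM in DBA/2J there, and 68.1, 77.6 and 71.5 CPM against 26.5, 26.7 and 28.5 CPM in normoxia. Against normoxia, Gstm2 rose by 0.51 in C57BL/6J (61.8% of all genes called) and by 1.21 in DBA/2J (68.5% called) on the log2 scale, and the strain difference in the change was 0.70 (SE 0.117, edgeR adjusted p = 0.00129, with 18.2% of all genes called). Against the 24 h controls, Gstm2 in normoxia changed by 0.77 in C57BL/6J (edgeR adjusted p = 2.49e-05) and by -0.16 in DBA/2J (edgeR adjusted p = 0.26), where 76.1% and 74.3% of all genes were called. The mean change over both strains, 0.31 (edgeR adjusted p = 0.00361), was not called when library totals replaced TMM scaling (edgeR adjusted p = 0.727). From 6 h to 24 h controls Gstm2 fell by 0.79 on the log2 scale (SE 0.104, edgeR adjusted p = 9.02e-06).

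Gstp1, the pi-class enzyme, rose with time in both strains. The 6 h controls held 72.8, 50.5 and 54.9 CPM in C57BL/6J and 53.3, 49.1 and 53.2 CPM in DBA/2J, and the 24 h controls held 176, 164 and 186 CPM and 117, 117 and 118 CPM. The strains overlapped at 6 h and not at 24 h, and the rise over both strains was 1.35 on the log2 scale (2.55-fold, SE 0.0819, edgeR adjusted p = 2.64e-09). In normoxia-hyperoxia Gstp1 was at its lowest, with 39.2, 32.2 and 39.8 CPM in C57BL/6J and 40.3, 36.5 and 35.2 CPM in DBA/2J, a fall of 0.58 against the 6 h controls (log2 change -0.58, SE 0.0921, edgeR adjusted p = 0.000154).

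Gsto1, the omega-class enzyme, which can reduce dehydroascorbate and methylated arsenic species, rose with time from a level that differed by strain. The 6 h controls held 53.8, 52.7 and 48.1 CPM in C57BL/6J and 26.3, 21.4 and 21.1 CPM in DBA/2J, and the 24 h controls held 113, 88.7 and 108 CPM and 70, 67.2 and 66.8 CPM. The strains did not overlap in any of the 8 conditions, and the rise over both was 1.27 (2.4-fold, SE 0.0765, edgeR adjusted p = 2.57e-09). In normoxia Gsto1 stood at 40, 41 and 40.8 CPM in C57BL/6J and 17.9, 15.7 and 13.7 CPM in DBA/2J, the lowest of the study in each strain. The fall from the 24 h controls was larger in DBA/2J, 2.03 against 1.34 in C57BL/6J (log2 changes -2.03 and -1.34), a strain difference of -0.69 (SE 0.139, edgeR adjusted p = 0.00403).

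Gstt1, a theta-class enzyme, and the kappa-class Gstk1 moved the other way. Gstt1 held 140, 109 and 116 CPM in C57BL/6J and 138, 118 and 116 CPM in DBA/2J controls at 6 h, and 24.4, 35.4 and 29.9 CPM against 47.9, 35.1 and 50.6 CPM at 24 h. Gstk1 held 57.8, 37.5 and 41.4 CPM and 42.8, 45.4 and 36 CPM at 6 h, and 9.33, 14.9 and 12.8 CPM and 14.7, 13.8 and 17.1 CPM at 24 h. No 24 h control library of either gene reached the 6 h range. Gstt1 fell by 1.77 (SE 0.114, edgeR adjusted p = 9.72e-09) and Gstk1 fell by 1.68 (SE 0.133, edgeR adjusted p = 6.92e-08) on the log2 scale. In both oxygen regimes both genes stood above every 24 h control library. In normoxia Gstt1 held 149, 130 and 144 CPM in C57BL/6J and 171, 156 and 130 CPM in DBA/2J, and Gstk1 held 66.8, 56.3 and 61.2 CPM and 53.6, 52.6 and 47.7 CPM. The highest of these lay above the highest 6 h control library. Against the 6 h controls, Gstt1 rose in normoxia by 0.23 (SE 0.0819, edgeR adjusted p = 0.0201) and Gstk1 by 0.35 (SE 0.0958, edgeR adjusted p = 0.00466) over both strains, and the Gstt1 call was lost without DBA/2J 6 h control replicate 2 (edgeR adjusted p = 0.0501) and in a fit of all 48 libraries (0.25, edgeR adjusted p = 0.09). In normoxia-hyperoxia the 6 libraries held 102 to 131 CPM of Gstt1 and 33.2 to 45.6 CPM of Gstk1, within or near the 6 h range. Against the 6 h controls, the values in normoxia-hyperoxia differed by -0.03 for Gstt1 (SE 0.0824, edgeR adjusted p = 0.779) and by -0.10 for Gstk1 (SE 0.106, edgeR adjusted p = 0.475). The summed proximal tubule markers and the mitochondrial share, given above, were likewise lower in the 24 h than in the 6 h controls and higher in normoxia than in the 6 h controls in both strains, and in normoxia-hyperoxia the proximal tubule sum was low where both genes were not; their part was not tested.

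**Figure D3:**
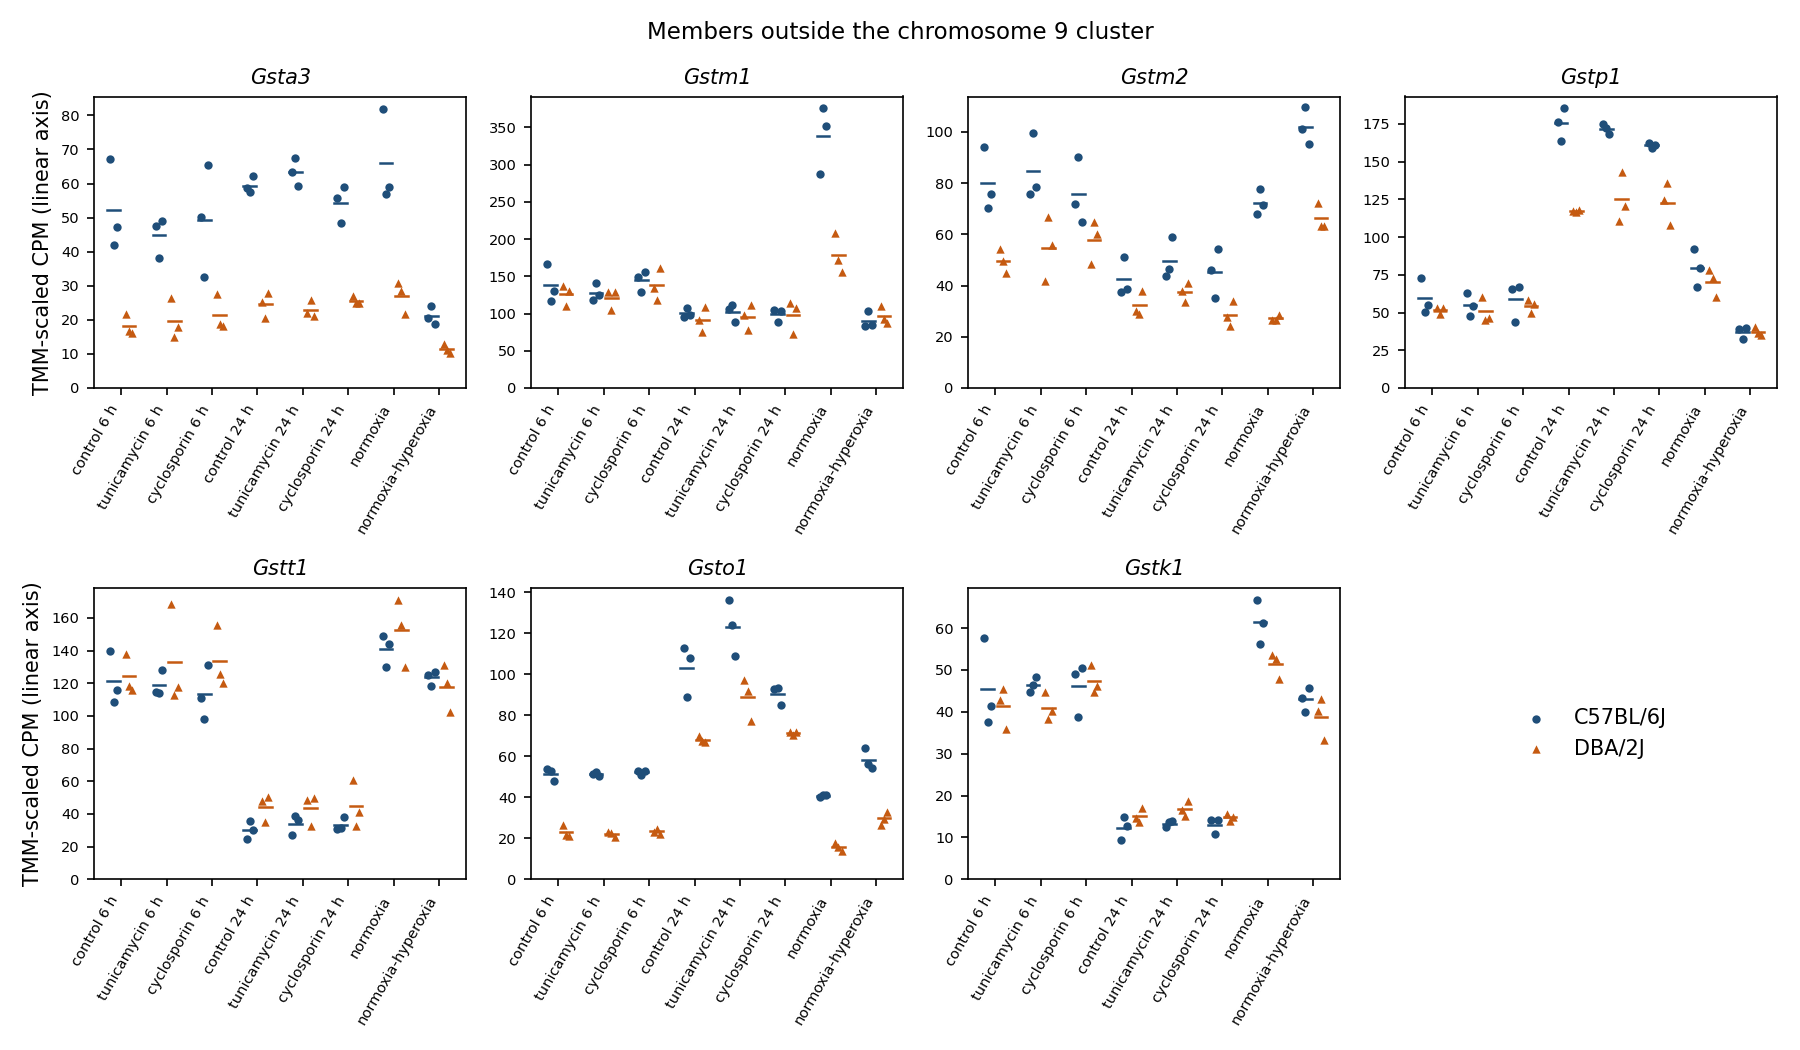
Levels of Gsta3, Gstm1, Gstm2, Gstp1, Gstt1, Gsto1 and Gstk1 in each library, in TMM-scaled CPM on linear axes from 0; circles are C57BL/6J, triangles are DBA/2J, and lines are means of 3 libraries. Gsta3 and Gsto1 are lower in DBA/2J in all 8 conditions, Gstm1 is highest in normoxia, and Gstt1 and Gstk1 are lowest in the 24 h control and drug conditions.

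Counted together, the members changed in both directions. In each of the 8 comparisons between conditions below, a larger share of the tested members than of all genes was called by the main fit. That describes genes chosen with results known and was not tested. In normoxia against the 24 h controls the 2 shares lie near each other, and the count of members depends on the scaling. Between the 24 h and the 6 h controls, 5 of the 9 tested members rose and 4 fell, where 72% of all 16962 genes tested were called. Between tunicamycin at 24 h and at 6 h, 6 of 10 rose and 4 fell (70.9% of all genes called), where the call of Gsta3 was lost without any of 4 single libraries (C57BL/6J replicate 2 or DBA/2J replicate 2 or 3 at 6 h, or DBA/2J replicate 2 at 24 h, edgeR adjusted p from 0.0541 to 0.0874). Between the cyclosporin A groups 5 of 10 rose and 4 fell (70% of all genes called). Against the 24 h controls, 4 of 9 rose and 4 fell in normoxia (82% of all genes called), and 3 of 9 rose and 5 fell in normoxia-hyperoxia (68.2% of all genes called). The Gstm2 rise in normoxia was not called with library totals in place of TMM scaling (0.03, edgeR adjusted p = 0.727). Against normoxia, 4 of 9 rose and 5 fell in normoxia-hyperoxia (73.5% called), where the call of Gstt1 was lost in a fit of all 48 libraries (-0.28, edgeR adjusted p = 0.0536). Against the 6 h controls, 5 of 8 tested members rose and 3 fell in normoxia (65.8% called), and 3 of 10 rose and 4 fell in normoxia-hyperoxia (44.9% called). Gsta1 did not pass the filter on low counts in the normoxia against 6 h comparison. The change differed between the strains for 4 of 9 tested members (Gstm1, Gstm2, Gsto1 and Gstp1) in normoxia against the 24 h controls (17% of all genes called), for 1 of 9, Gstp1, in normoxia-hyperoxia against the 24 h controls (1.43% of all genes called), and for 1 of 8, Gstm2, in normoxia against the 6 h controls (3.66% called). The Gstp1 calls, and that of Gstm2 against the 6 h controls, were lost in a fit of all 48 libraries (edgeR adjusted p = 0.188, 0.111 and 0.0798) and without several single libraries. Between the times of the controls, Gsta2 left aside, 0 of 9 were called by edgeR (0.69% of all genes called). An unadjusted p under 0.05 was held by 3 of 9, where 2242 of all 16962 genes tested had one. Of these 3 members, Gsto1 was nearest to a call at 0.56 (SE 0.151, edgeR adjusted p = 0.125). The medians over the tested members were 0.29 for 24 h against 6 h controls and -0.07 for normoxia-hyperoxia against 6 h controls, beside -0.019 and 0.023 over all genes tested. The comparisons with the 24 h controls share those libraries, as do those with the 6 h controls. Markers of many cell types changed in these comparisons too. From 6 h to 24 h of the controls, all 12 proximal tubule markers, all 4 each of the thick limb, collecting duct, intercalated cell and podocyte markers and all 3 distal convoluted tubule markers fell, as did 3 of 4 immune, 3 of 4 fibroblast and 2 of 4 endothelial markers, with 1 endothelial marker higher. In C57BL/6J the summed level of the intercalated cell markers went from 400.6 to 74.7 CPM, that of the distal convoluted tubule from 3755 to 689.1 CPM, that of the thick limb from 9718 to 2963 CPM and that of the immune markers from 563.2 to 172.7 CPM. In normoxia against the 24 h controls, all markers of the proximal tubule, thick limb, distal convoluted tubule and intercalated cells rose, with 3 of 4 for the collecting duct and immune cells, while 3 of 4 podocyte and 2 of 4 fibroblast markers fell. In normoxia-hyperoxia against the 24 h controls, all markers of the thick limb, distal convoluted tubule, collecting duct, intercalated cells, podocytes and immune cells rose, and 8 of 12 of the proximal tubule fell. The part of these markers in the members' changes was not tested. The titles place the oxygen regimes in another experiment than the controls and drugs, so experiment and oxygen regime cannot be told apart. In every comparison of an oxygen regime with the 6 h controls, time in culture cannot be told apart from them either.

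**Figure D4:**
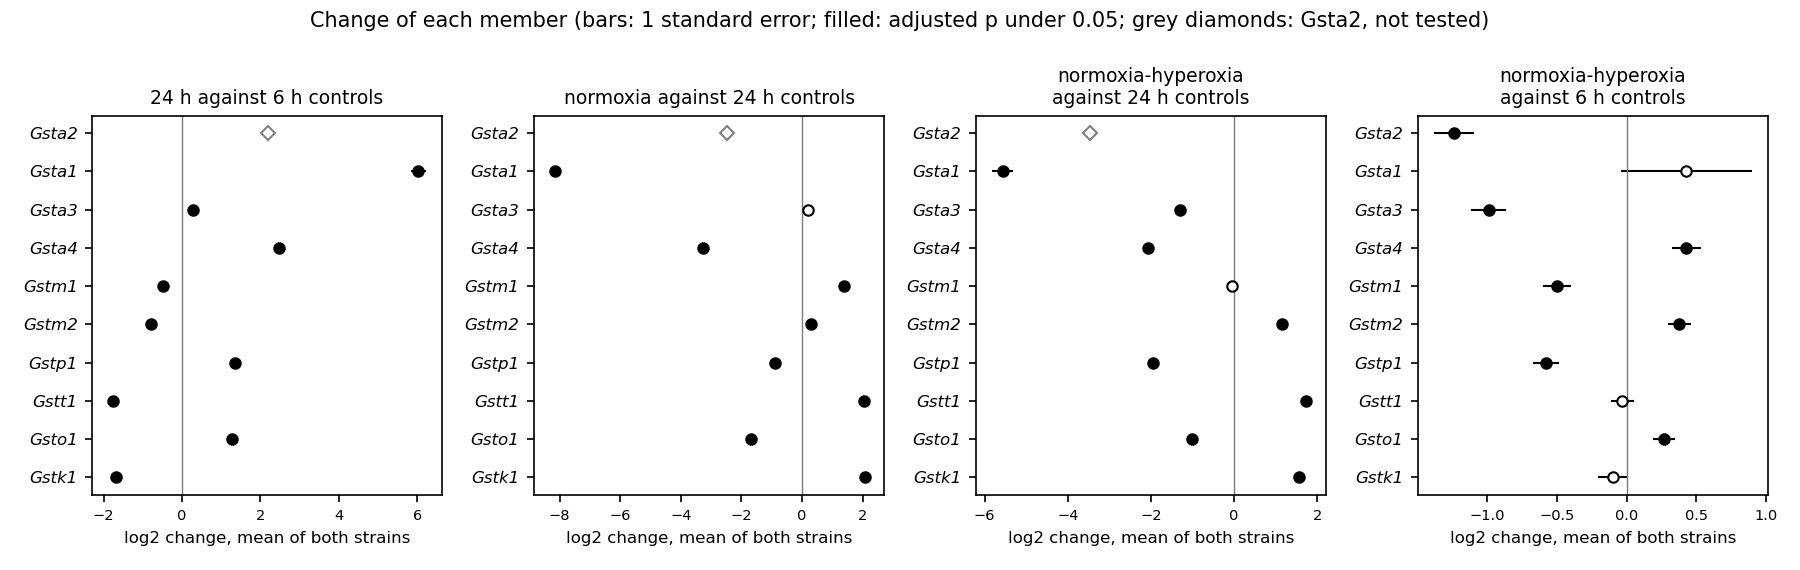
Log2 change of each member, as the mean of both strains, in 4 comparisons; bars are 1 standard error, filled circles passed an adjusted p of 0.05 by edgeR, and grey diamonds are values of Gsta2 given without a test. Gsta1, Gsta4, Gstp1 and Gsto1 lie above 0 at 24 h against 6 h and below 0 in both oxygen regimes against 24 h, and Gstt1 and Gstk1 do the reverse; the circle of Gstm2 in normoxia is not called with library totals in place of TMM scaling.

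By edgeR's test on the libraries of each comparison, no member was called with either drug at either time, and 1 member, Gsto1 with tunicamycin at 24 h, was called by DESeq2 and under several other settings. At 6 h, 0 of 10 members were called with tunicamycin and 0 of 10 with cyclosporin A by edgeR, and 0% of all genes were called in either comparison. At an unadjusted p under 0.05, 281 genes differed with tunicamycin and 734 with cyclosporin A at 6 h. At 24 h, 0 of 9 members were called with tunicamycin (1.38% of all genes called) and 0 of 9 with cyclosporin A (0% called, with 1107 genes at an unadjusted p under 0.05). DESeq2 called 0 genes with tunicamycin and 50 with cyclosporin A at 6 h, and 532 and 20 at 24 h. Gsto1 with tunicamycin at 24 h came nearest to the threshold, at 0.32 on the log2 scale (SE 0.0759, edgeR adjusted p = 0.0579). It was called by DESeq2 (0.31, adjusted p = 0.0154). It was also called by edgeR with no filter on low counts (0.32, adjusted p = 0.00226), with the replicate block (adjusted p = 0.0342), with all 48 libraries in 1 fit (adjusted p = 0.00512), and without tunicamycin replicate 3 of C57BL/6J or of DBA/2J (0.36 each, edgeR adjusted p = 0.0314 and 0.0344). Its libraries held 136, 124 and 109 CPM in C57BL/6J and 97.3, 92 and 77 CPM in DBA/2J with tunicamycin, which overlapped with the controls in C57BL/6J and not in DBA/2J. Gsta2 at 6 h changed by -0.13 with tunicamycin (SE 0.125) and by 0.01 with cyclosporin A (SE 0.199), both with an edgeR adjusted p of 1.

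Within a condition, the strain difference of the members was mostly toward lower levels in DBA/2J. In the 6 h controls 5 of 10 members were lower and 0 higher in DBA/2J, where 25.8% of all 18719 genes tested were called in either direction. The counts were 5 of 10 lower with tunicamycin at 6 h (25.6% of all genes called), 5 of 10 with cyclosporin A at 6 h (35.9%), 4 of 10 with tunicamycin at 24 h (17.6%) and 5 of 10 with cyclosporin A at 24 h (21.5%). They were 5 of 9 in normoxia (39.9%) and 5 of 10 in normoxia-hyperoxia (22.3%), and in the 24 h controls 4 of 9 were lower and 1 was higher (21.7%). Gsta3, Gsta4 and Gsto1 were called lower in DBA/2J in all 8 conditions. The share of all genes called in all 8 is not given here, and the 8 tests share 1 fit, so this describes these members only. Gsta3 was 1.86-fold to 2.87-fold lower, Gsta4 1.85-fold to 2.47-fold and Gsto1 1.27-fold to 2.58-fold lower. Gstm2 was called lower in 5 conditions, up to 2.65-fold in normoxia, and with tunicamycin at 6 h that call rested on single libraries: it was lost without C57BL/6J replicate 2 or DBA/2J replicate 1 (-0.49 and -0.43, edgeR adjusted p = 0.0503 and 0.0837). Gstm1 was called in normoxia only, at -0.92 (SE 0.16, edgeR adjusted p = 1.69e-05). Gstp1 was called lower in DBA/2J in the 3 conditions of 24 h culture, at -0.58, -0.46 and -0.39. The call with tunicamycin was lost without DBA/2J replicate 1 or 3, and that with cyclosporin A without any single library but DBA/2J replicate 2, at -0.30 to -0.44 (edgeR adjusted p from 0.0541 to 0.166). Gstt1 was called higher in DBA/2J in the 24 h controls, at 0.57 (edgeR adjusted p = 0.0279), and lost the call without replicate 1 or 3 of either strain, at 0.45 to 0.59 (edgeR adjusted p from 0.0638 to 0.157). That call was also lost with no filter on low counts (0.55, edgeR adjusted p = 0.0879). Gstk1 was called by edgeR in none of the 8 conditions, at -0.26 to 0.33.

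Among the 13 other cytosolic transferase genes tested, more were called higher than lower in DBA/2J, at shares above that of all genes at 24 h and in normoxia-hyperoxia, but at or below it in 6 h controls, with tunicamycin at 6 h and in normoxia. In DBA/2J 6 were called higher and 0 lower by edgeR in the 24 h controls (median difference 0.74, with 21.7% of all genes called), 7 and 0 with each drug at 24 h (17.6% and 21.5%), and 5 and 0 in normoxia-hyperoxia (22.3%). At 6 h 2 were higher and 0 lower in controls (25.8%), 3 and 0 with tunicamycin (25.6%) and 4 and 1 with cyclosporin A (35.9%), and in normoxia 2 were higher and 1 lower (39.9%). The mu-class gene Gstm5 was higher by 1.61 in the 24 h controls (edgeR adjusted p = 0.000313) and by 1.63 in normoxia-hyperoxia (edgeR adjusted p = 0.000277), and Hpgds by 1.10 (edgeR adjusted p = 0.00524) and 2.11 (edgeR adjusted p = 6.39e-07). Of the 11 NRF2 targets, more were called lower than higher in DBA/2J at 6 h and 24 h: 7 lower and 1 higher in the 6 h controls (median difference -0.73), 5 and 1 with tunicamycin and 7 and 1 with cyclosporin A at 6 h, and 4, 3 and 4 lower with 0 higher in the 24 h control, tunicamycin and cyclosporin A groups. In normoxia 3 were lower and 2 higher, and in normoxia-hyperoxia 1 was lower and 2 were higher.

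Markers of several cell types were also lower in DBA/2J. Between 1 and 4 of 4 intercalated cell markers and between 1 and 4 of 4 collecting duct markers were called lower in each of the 8 conditions, where 17.6% to 39.9% of all genes were called in either direction, so that 1 of 4 is near the share over all genes. Podocyte markers were called lower in 7 of 8 conditions, with up to 4 of 4, and endothelial markers in 7 of 8, with up to 4 of 4; the exception for both was normoxia-hyperoxia. The median log2 difference ran from -0.91 to -0.52 for intercalated cells, from -0.89 to 0.03 for the collecting duct, from -1.06 to -0.32 for podocytes and from -0.89 to 0.02 for endothelium. Of the 12 proximal tubule markers, 1, 2 and 3 were called higher in DBA/2J in the control, tunicamycin and cyclosporin A groups at 6 h, at or below the shares of all genes called there. The counts were 10, 4 and 6 in the same groups at 24 h, 5 in normoxia and 9 in normoxia-hyperoxia, with medians from 0.72 to 1.62 over the 8 conditions. Thick limb markers were called lower in 3 conditions, distal convoluted tubule markers lower in 3 and higher in 3, immune markers lower in 2 and higher in 2, and fibroblast markers lower in 1. Star, the 1 adrenal marker that passed the filter on low counts, was called lower in 7 of 8 conditions, at -2.71 to -1.72, and stood at 0.29 in normoxia. The part of these markers in the members' strain differences was not tested.

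**Figure D5:**
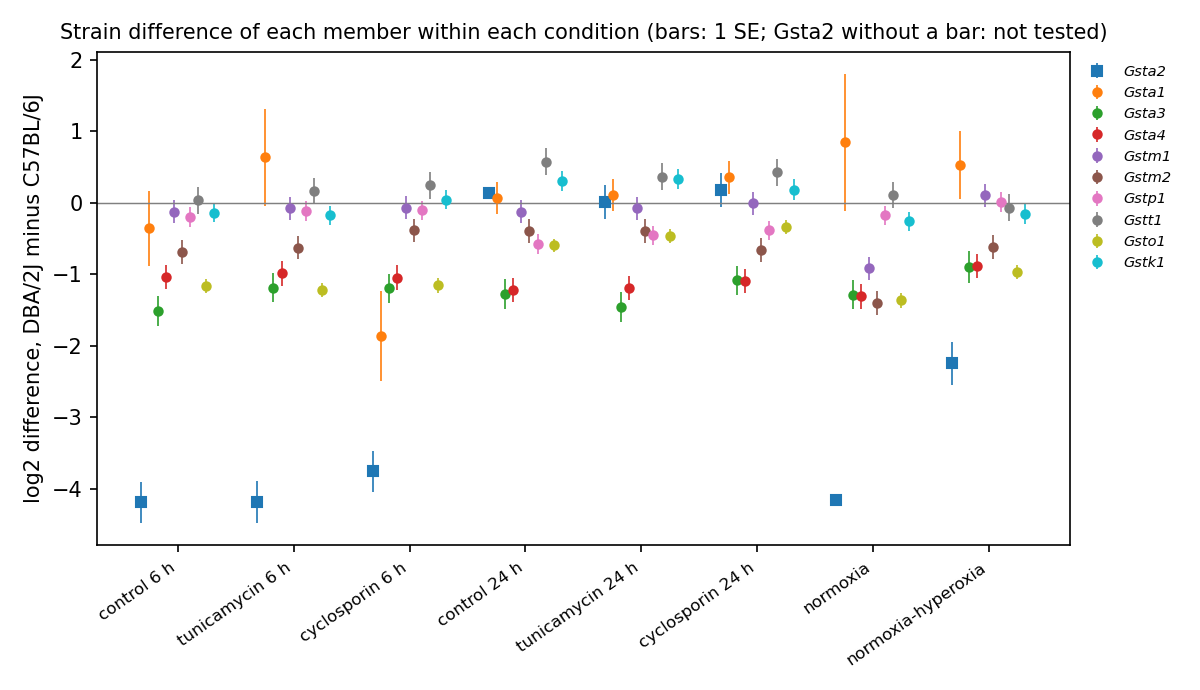
Strain difference of each member within each condition, as DBA/2J minus C57BL/6J on the log2 scale; bars are 1 standard error, and Gsta2 has no bar in the 24 h controls and normoxia, where it was not tested. Gsta2 lies near -4 at 6 h and in normoxia, at -2.25 in normoxia-hyperoxia and near 0 at 24 h, while Gsta3, Gsta4 and Gsto1 lie below 0 in all conditions.

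Levels of different genes were compared per kilobase of exon, as scaled CPM divided by the exon length of GENCODE M21 (FPKM). In C57BL/6J controls at 6 h the order was Gstm1 at 93.7 ± 17.5, Gsta2 at 81.3 ± 18.6, Gstt1 at 79.6 ± 10.6 and Gsta4 at 57.9 ± 9.16 FPKM (SD, n = 3). The first 3 of these lay within their spread of one another, also per kilobase of the longest coding transcript (an alternative added after seeing the data), at 107, 110 and 110. In DBA/2J controls at 6 h, Gstm1 at 85.3 ± 9.43 and Gstt1 at 81.2 ± 7.94 FPKM led, and Gsta2 at 4.46 ± 0.504 was among the lowest, beside Gsta3 at 4.18 ± 0.703. That order depends on the exon length, 4344 bases for Gsta3: per kilobase of the longest coding transcript (1457 and 870 bases), Gsta3 stood at 12.5 ± 2.1 and Gsta2 below it at 6.03 ± 0.682. At 24 h Gsta4 led in both strains, at 349 ± 19.3 FPKM in C57BL/6J and 149 ± 26.6 in DBA/2J. Gsta2 then lay behind Gsta4 and Gstp1 in C57BL/6J, at 84.5 ± 11.9, and behind Gsta4 alone in DBA/2J, at 92.4 ± 8.29. By transcript length Gstp1 at 143 ± 0.799 also stood above Gsta2 at 125 ± 11.2 in DBA/2J. As a share of the summed CPM of the 10 genes, Gsta2 made up 13.2% ± 1.5 in C57BL/6J and 1.11% ± 0.18 in DBA/2J controls at 6 h, and 9.05% ± 1.3 and 15% ± 1.7 at 24 h.

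The other genes of glutathione metabolism gave a setting for these changes. Of all genes tested, 72% were called between the 24 h and 6 h controls and 44.9% between normoxia-hyperoxia and the 6 h controls. Several counts in this paragraph and the next lie near or below these shares. Among 12 further cytosolic transferase genes tested, 4 rose and 6 fell from 6 h to 24 h controls, led by Gm3776 (log2 change 6.84) and Gm10639 (3.35). Gm3776 held at most 5 reads in any 6 h control library, so the size of its change is uncertain. In normoxia-hyperoxia against 6 h controls, 1 of 12 rose and 3 fell, with Gstt2 at -1.54 and Hpgds, the prostaglandin D synthase of the sigma class, at 1.46. Of 6 genes of glutathione synthesis and recycling, 5 rose and 0 fell by 24 h, with Slc7a11, the cystine importer, at 4.5 and Gclm, a subunit of the rate-limiting ligase, at 1.77. In normoxia-hyperoxia 1 of these 6 rose and 4 fell, with Slc7a11 at 1.05 and Gss, glutathione synthetase, at -1.15. All 8 genes of glutathione breakdown fell by 24 h, with Ggt1 at -1.90 and Dpep1 at -1.75, both enzymes of the tubular brush border, and 7 of 8 fell in normoxia-hyperoxia, with Ggt1 at -1.79 and Dpep1 at -1.63. The proximal tubule markers fell in the same comparisons, and their part was not tested.

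Of 7 glutathione peroxidase genes, 1 rose and 4 fell by 24 h, with Gpx3 at -2.01 and Gpx1 at -1.57, and 2 rose and 4 fell in normoxia-hyperoxia against 6 h, with Gpx3 at -2.15 and Gpx1 at -1.27. Of 5 membrane-bound transferase relatives, 0 rose and 3 fell by 24 h, with Mgst3 at -1.64 and Mgst1 at -1.09, and 2 rose and 1 fell in normoxia-hyperoxia, with Alox5ap at 0.75 and Mgst3 at -0.39. Of 11 known NRF2 targets outside the family, 9 rose and 2 fell by 24 h, with Akr1b8 at 3.38 and Nqo1, a quinone reductase, at 2.51. In normoxia-hyperoxia against 6 h, 3 rose and 2 fell, with Me1 at -1.75 and Akr1b8 at 1.64. Of 6 regulators around NRF2, 3 rose and 1 fell by 24 h, with Mafg at 0.69 and Keap1 at 0.54, and 4 rose in normoxia-hyperoxia, with Maff at 0.65 and Bach1 at 0.48. The share of all genes called was 72% and 44.9% in these comparisons, and the median log2 change of the NRF2 targets by 24 h was 1.75 beside -0.019 over all genes.

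Over the 16 group means of log2 CPM, the genes whose pattern was most like that of Gsta2 were Igsf9 (Pearson r = 0.945), Snap23 (r = 0.935), Neu3 (r = 0.925), Rrm2b (r = 0.923) and Cdh2 (r = 0.92). Among the members, Gsto1 came nearest at r = 0.874, followed by Gsta4 at 0.754, Gsta3 at 0.719, Gstp1 at 0.66 and Gsta1 at 0.627. Gstm2 at -0.0325 and Gstm1 at -0.106 lay near 0, and Gstk1 at -0.551 and Gstt1 at -0.64 ran opposite. The group means share libraries, depth and strain, and the values are descriptions.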

How the data were processed

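The 10 members, the gene lists and the tests were chosen with earlier results of these data known. The authors deposited 1 table of raw whole-number counts per gene, with 1 column for each of 48 libraries and no normalization. Per the labels' protocols, RNA from a Qiagen kit was made into stranded Illumina mRNA libraries. Per the submitters' processing notes, bcl2fastq 2.20.0, FastQC 0.11.8, STAR 2.7.9a, featureCounts 1.5.1 and GRCm38 were used; their settings, the annotation release and the handling of reads that match several genes are not given in the sources used here. Symbols were matched for 55141 of 55487 gene IDs.

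edgeR 4.0.16 in R 4.3.3 (with limma 3.58.1) was run on the counts with TMM normalization, its default filter on low counts and a robust quasi-likelihood fit. Each comparison between conditions used its own 12 libraries in 4 groups, and strain differences used all 48 in 16 groups. P-values were adjusted by Benjamini-Hochberg over all genes tested, at a threshold of 0.05. The method was tested on simulated counts. Log2 CPM for likeness used a prior count of 2, and ratios of few counts carry exact binomial 95% intervals. Alternatives were DESeq2 1.42.0 and its size factors, no filter, all 48 libraries in 1 fit, a replicate block and leaving out each library. Library totals without TMM, the summed alpha-class copies, and levels per length of the longest coding transcript, were added after seeing the data. The genes named were all 10 members, the 2 called genes with the largest change in each list in the comparisons of 24 h controls and of normoxia-hyperoxia with 6 h controls, and the 5 genes most like Gsta2. Gm3776 and Gm10639 were described further after their values were seen. Gstm5, the strain differences of Hpgds and the single markers Ttr, Alb, Apoa1, Star and Cyp11b1 were named outside this rule. Sequences and positions came from RefSeq (GRCm38.p6) and GENCODE M21 (GRCm38), aligned with Biopython 1.88.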

Additional observations from a re-analysis of the deposited data

Results flagged for a closer look

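The results below had a strain difference in the change between conditions (DBA/2J minus C57BL/6J, log2) that passed edgeR's quasi-likelihood test at an adjusted p under 0.05. For Gsta2 it was 4.17 between tunicamycin at 24 h and at 6 h, 3.88 between cyclosporin A at 24 h and at 6 h, and 1.89 between normoxia-hyperoxia and the 6 h controls, with the values by library given above. For Gsto1 it was 0.76 between the cyclosporin A times (SE 0.107, edgeR adjusted p = 0.0127) and -0.69 between normoxia and the 24 h controls. The first of these was lost without DBA/2J cyclosporin A 6 h replicate 3, at 0.73 (edgeR adjusted p = 0.0544), and with the replicate block, at 0.77 (edgeR adjusted p = 0.0511).

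For Gstm1 the difference was 0.93 between normoxia-hyperoxia and normoxia (SE 0.187, edgeR adjusted p = 0.00404) and -0.71 between normoxia and the 24 h controls. For Gstm2 it was 0.70 between normoxia-hyperoxia and normoxia, -0.92 between normoxia and the 24 h controls (SE 0.17, edgeR adjusted p = 0.00224) and -0.69 between normoxia and the 6 h controls (SE 0.149, edgeR adjusted p = 0.0199). The last was lost in a fit of all 48 libraries, at -0.72 (edgeR adjusted p = 0.0798), and on leaving out any of 6 single libraries: C57BL/6J 6 h control replicate 3, DBA/2J 6 h control replicates 1 and 2, C57BL/6J normoxia replicate 2 and DBA/2J normoxia replicates 1 and 2 (edgeR adjusted p from 0.0507 to 0.0611).

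For Gstp1 the difference was 0.59 between normoxia-hyperoxia and the 24 h controls (SE 0.131, edgeR adjusted p = 0.0399) and 0.48 between normoxia and the 24 h controls (SE 0.156, edgeR adjusted p = 0.0468). Both were lost in a fit of all 48 libraries, at 0.59 and 0.40 (edgeR adjusted p = 0.111 and 0.188), and on leaving out most single libraries. The difference in normoxia was also lost by DESeq2's Wald test (0.45, adjusted p = 0.0549). With DESeq2's size factors (0.45) and with library totals (0.37) it was lost too (edgeR adjusted p = 0.0618 and 0.115). The groups hold 3 libraries, so no test for a library that stands apart within a group was made.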

How the results depend on the processing

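Of the main counts and Gsta2 values under all alternatives, 414 kept their side, 6 counts moved, 5 values turned their direction and 6 lost their call. The count of members called with tunicamycin at 24 h went from 0 to 1 with no filter, with the replicate block, with all 48 libraries in 1 fit and with DESeq2, and ran from 0 to 1 on leaving out 1 library. The strain difference of Gsta2 with tunicamycin at 24 h, 0.01, was -0.01 with no filter and -0.01 in the 6 libraries alone, and ran from -0.24 to 0.40 on leaving out 1 library, with edgeR adjusted p-values far above the threshold. Replicate numbers are only numbers in the labels: the correlation of deviations between same-numbered libraries ran from -0.197 to 0.302, and no comparison had all 6 pairs over 0.1. Within DBA/2J all 3 pairs were over 0.1 in 5 of 12 comparisons (for example 0.253, 0.168 and 0.157 for cyclosporin A over time), and within C57BL/6J in 1, normoxia-hyperoxia against 24 h controls. With the replicate block the Gsta2 interaction was 4.24 for tunicamycin (edgeR adjusted p = 0.0797) and 1.89 for normoxia-hyperoxia against 6 h controls (adjusted p = 0.0626); the latter ran from 1.72 to 2.05 on leaving out 1 library. The block also took the call of the Gsto1 interaction for cyclosporin A (0.77, edgeR adjusted p = 0.0511). No paired analysis was possible for the strain differences because the strains are different mice. With library totals in place of TMM the median log2 change of all genes was 0.187 for 24 h against 6 h controls (-0.019 with TMM), 0.176 and 0.256 for tunicamycin and cyclosporin A over time (-0.027 and -0.02), and -0.211 and -0.165 for normoxia and normoxia-hyperoxia against 24 h controls (0.054 and -0.003); Gstm1 between the tunicamycin times then lost its call (edgeR adjusted p = 0.198). Of the other member values, 1664 kept their side and 72 lost their call, and none turned; the cause was not tested. Depth limits Gsta1 and Gm3776 at 6 h and in both oxygen regimes, where libraries held at most 25 reads.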
